A study of Mus musculus with 8 samples.

Results

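The 9 genes described here encode subunits of the voltage-gated potassium channels that repolarize the heart. They were found by their symbols, 9 of the 24516 symbols in the deposited count table, and all 9 were among the 15075 genes that passed a filter on low counts. They are Kcnd2, Kcnd3 and Kcnip2, Kcna4, Kcna5, Kcnv2, Kcnh2, and Kcnq1 with Kcne1. RNA of mouse hearts was profiled by bulk RNA sequencing at postnatal day 40. Hearts were homozygous (n = 3) or heterozygous (n = 3) for the loss of a conserved Actn2 enhancer, deleted with CRISPR/Cas9, or carried both intact copies (wild type, n = 2). The deletion is in the germ line, so it is carried by all cells of the animal, and per the labels all hearts came from 1 litter. The sources used here do not give the strain, the number of founder lines or the chambers taken. The comparisons ask how the level of each channel gene differs with the loss of 1 or both copies of the enhancer.

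Voltage-gated potassium channels open when the cell membrane is depolarized and let potassium flow out, which ends the action potential of the cardiomyocyte. Pore subunits form the potassium path as tetramers, while auxiliary subunits change how many channels reach the membrane and how fast they open and close. In mouse ventricle the fast transient outward current, carried by the Kcnd genes, and delayed rectifier currents, among them that of the Kcna5 product, dominate repolarization. In human heart the Kcnh2 and Kcnq1 products carry the main delayed rectifier currents, and variants in their genes cause long QT syndrome.

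The pore subunits share a selectivity filter, the narrow part of the pore that lets potassium through and holds sodium back. Its core is encoded by 3 neighbouring codons. The stretches around them are shown for 6 of the 9 genes, since the filter is what these pore subunits have in common. Capitals mark these core codons, not the whole filter. They code for glycine, tyrosine and glycine, or in Kcnh2 for glycine, phenylalanine and glycine. Each stretch is the coding strand, 5′ to 3′, from GENCODE vM21 on mm10.
Kcnd2: acactgGGGTATGGCgac
Kcnd3: acactgGGATATGGAgac
Kcna4: actgtgGGCTATGGGgac
Kcna5: actgtaGGCTACGGGgac
Kcnv2: accgtgGGCTATGGAgac
Kcnh2: agcgtgGGCTTTGGCaat
The stretch of Kcna4 lies at chr2:107296495-107296512 on the plus strand, and that of Kcna5 at chr6:126533742-126533759 on the minus strand. That of Kcnv2 lies at chr19:27333654-27333671 (plus) and that of Kcnh2 at chr5:24325552-24325569 (minus). In both Kcnd genes an exon junction falls within the stretch. Its parts lie at chr6:21217406-21217413 and chr6:21714135-21714144 in Kcnd2, and at chr3:105459914-105459921 and chr3:105658611-105658620 in Kcnd3, all on the plus strand. The Kcnd2 and Kcnd3 stretches differ at 2 of 18 bases, as do those of Kcna4 and Kcna5, whereas the Kcnh2 stretch differs from each of the other 5 at 5 to 8 bases. The coding sequences of Kcnip2 and Kcne1, the auxiliary subunits, hold no such stretch.

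Reads can be shared between such relatives where sequences are identical. Only exact matches were sought here, so reads shared through nearly identical sequence are not covered. Of all 50-base windows of the member transcripts, none of Kcnd2, Kcnip2, Kcna4, Kcnv2, Kcnh2 or Kcne1 occurred in another gene. The share was 2.81% for Kcna5, with Kcna6 and Gm26673. It was 1.64% for Kcnd3 and 2.55% for Kcnq1, each with the antisense RNA that overlaps it. These are Kcnd3os, over 1.7% of the exon bases of Kcnd3, and Kcnq1ot1, over 3.0% of those of Kcnq1. Since the strand setting of the counting is not given, reads from these overlaps cannot be told apart.

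Depth was 22230090 to 55902737 counts per library. Wild type 2 stood apart from the other 7 libraries: on the first principal component (35.9% of the variance of the 1000 most variable genes) it scored 61.4, against -14.2 to -7.87 in the deletion hearts and 10.8 in wild type 1. Across genes, the correlation of log2 CPM was 0.969 to 0.982 between deletion libraries and 0.952 between the wild-type libraries. With Xist as the guide, both sexes occurred in every genotype. The 2 wild-type hearts differed in sex, with Xist at 1.74 CPM in wild type 1 and 567 CPM in wild type 2. Within wild type alone, differences between these 2 hearts, and fits without 1 of them, therefore cannot be told apart from sex. Among the deletion hearts, the first component was -7.87, -10.7 and -14.2 in females and -12.5, -14.1 and -12.8 in males. The part of sex in the difference between the wild-type hearts was not tested. The 8 cardiomyocyte markers summed to 76480 to 81726 CPM (counts scaled to a library total of 1000000) in homozygous hearts. The sums were 76305 to 79564 in heterozygous and 81161 to 86231 in wild-type hearts. None of the 8 was at 0, so the libraries carry the markers of the labelled tissue. In each deletion genotype 3 of the 8 were higher and 1 was lower than in wild type at an adjusted p under 0.05 by edgeR. Over all genes, 15.3% were higher and 12.4% lower in homozygous, and 15.2% and 12.8% in heterozygous hearts. The sums do not show these changes. Actn2, whose enhancer was deleted, had 2115, 1611 and 1791 CPM in homozygous, 1693, 1546 and 1638 CPM in heterozygous, and 2187 and 2703 CPM in wild-type hearts. In bulk tissue, fewer cells of a type and less RNA per cell cannot be told apart.

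Levels below are CPM scaled by TMM, a method that corrects for differences in RNA composition. Fold changes are on the log2 scale with their standard error (SE), from edgeR's quasi-likelihood test, adjusted by Benjamini-Hochberg over all 15075 genes, and a call is an adjusted p under 0.05. Intervals are 95% intervals of the log2 fold change. Because fold changes against wild type also followed the length, 3′ UTR length and GC content of genes, a fit with these properties removed is given where it changes a call or moves a value by much.

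Per kilobase of exon, the order of the levels was similar in the 3 genotypes. Kcnip2, the auxiliary subunit of the fast transient outward current, was the highest of the 9 in each, with 67.8 ± 2.32, 55.7 ± 8.70 and 61.3 ± 3.19 CPM per kb in homozygous, heterozygous and wild-type hearts (SD, n = 3, 3 and 2). Kcnh2 came next, with 26.6 ± 1.79, 28.6 ± 1.43 and 26.4 ± 13.9 CPM per kb, followed by Kcna5 with 19.6 ± 3.24, 18.4 ± 0.977 and 26.1 ± 3.47 CPM per kb in the same order of genotypes. In wild type Kcnh2 and Kcna5 did not differ beyond their spread. Kcnq1 and Kcnv2 followed, at 9.98 ± 1.01 and 6.03 ± 0.570 CPM per kb in homozygous hearts, 8.72 ± 1.78 and 7.13 ± 2.17 in heterozygous hearts, and 7.29 ± 0.839 and 7.85 ± 2.54 in wild-type hearts. These 2 genes did not differ beyond their spread in heterozygous or wild-type hearts.

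Kcnd2, Kcnd3 and Kcne1 formed the next group, and their order was within the spread in wild type. In homozygous hearts they were at 5.20 ± 0.470, 3.13 ± 0.664 and 1.74 ± 0.919 CPM per kb, in heterozygous hearts at 4.82 ± 1.39, 3.15 ± 0.216 and 2.85 ± 1.53, and in wild-type hearts at 3.31 ± 2.02, 3.13 ± 0.125 and 3.49 ± 1.70. Kcna4 was last of the 9 in each genotype, at 0.342 ± 0.104, 0.337 ± 0.0403 and 0.171 ± 0.0182 CPM per kb in homozygous, heterozygous and wild-type hearts.

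**Figure D1:**
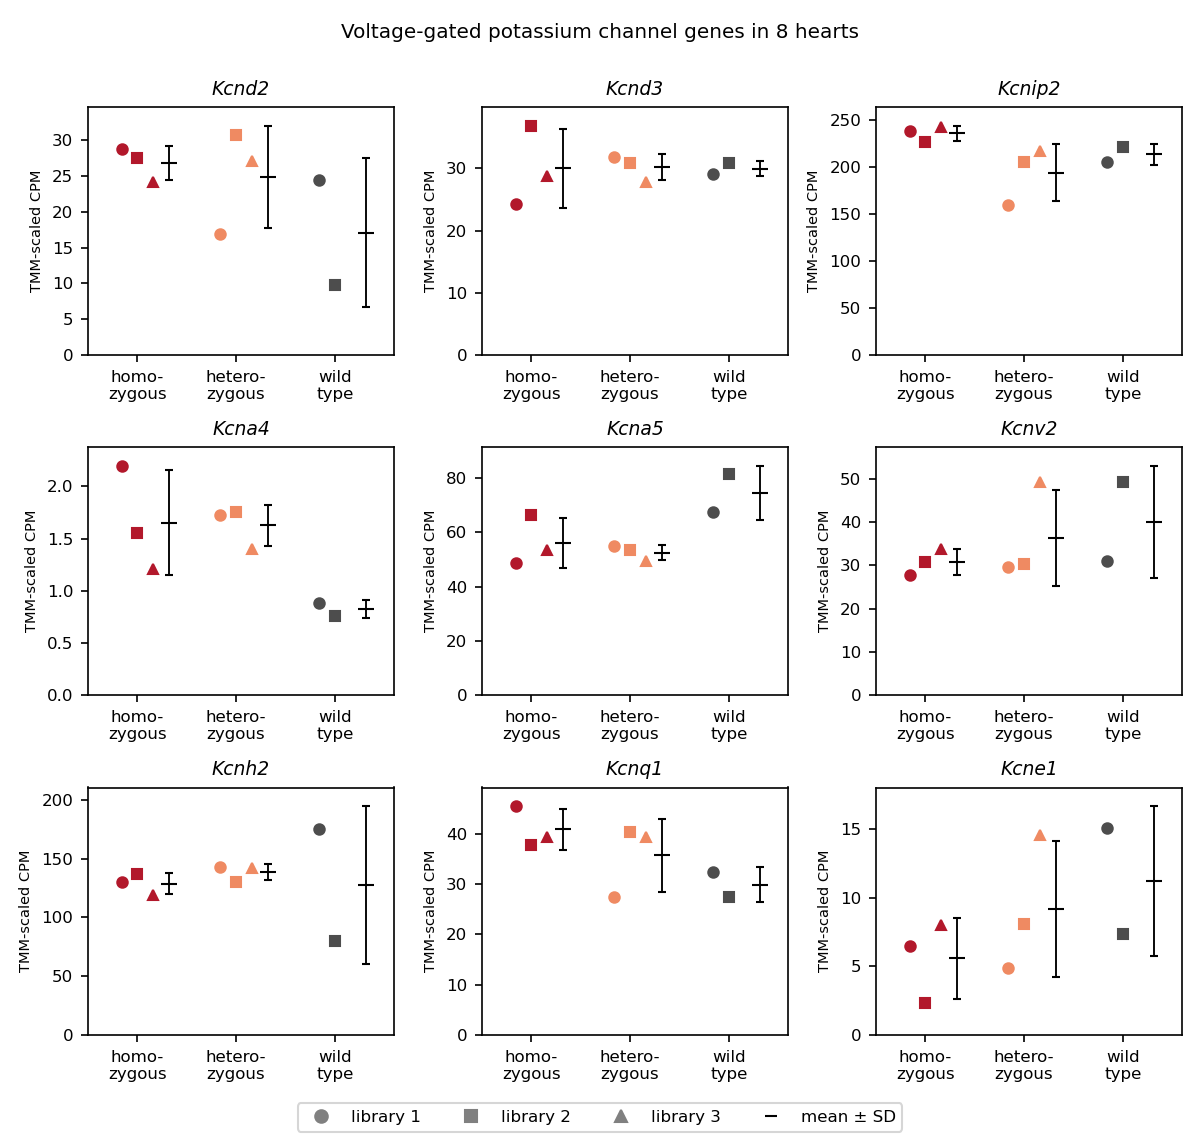
TMM-scaled CPM (y axis, from 0) of the 9 channel genes in 3 homozygous, 3 heterozygous and 2 wild-type hearts; points are libraries and bars are mean ± SD. Kcna4 lies higher and Kcna5 lower in all 6 deletion hearts than in both wild-type hearts, and the wild-type points of Kcnd2 and Kcnh2 lie far apart.

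Only Kcna5 passed the test, and only in heterozygous against wild-type hearts, where it fell. In homozygous against wild-type hearts 0 of the 9 passed edgeR's quasi-likelihood test, against a background of 27.7% of all genes tested. There, 3 of the 9 had an unadjusted p under 0.05 by edgeR, beside 6054 of all 15075 genes. DESeq2 and limma-voom also called 0 of the 9. In heterozygous against wild-type hearts 1 of the 9 passed, against a background of 28.0%. The median log2 fold change of the 9 was 0.01 in homozygous and 0.01 in heterozygous hearts, beside -0.03 and -0.03 over all genes. Both comparisons share the 2 wild-type libraries.

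Counted by separation of libraries, 4 of the 9 did not overlap between homozygous and wild-type hearts, where 54.8% of all genes did not. Of these, Kcnip2, Kcna4 and Kcnq1 were higher, as were 27.6% of all genes, and Kcna5 was lower, as were 27.2%. Between heterozygous and wild-type hearts 2 of the 9 did not overlap, where 51.3% of all genes did not (25.7% higher, as Kcna4, and 25.6% lower, as Kcna5). Kcna4 lay above, and Kcna5 below, both wild-type hearts in all 6 deletion hearts, a separation seen for 42.8% of all genes (22.1% above and 20.7% below). Of the 9, the share that did not overlap in either direction was below the share of all genes in each of these 3 sets, while the 3 of 9 higher in homozygous hearts stand beside a background of 27.6%.

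**Figure D2:**
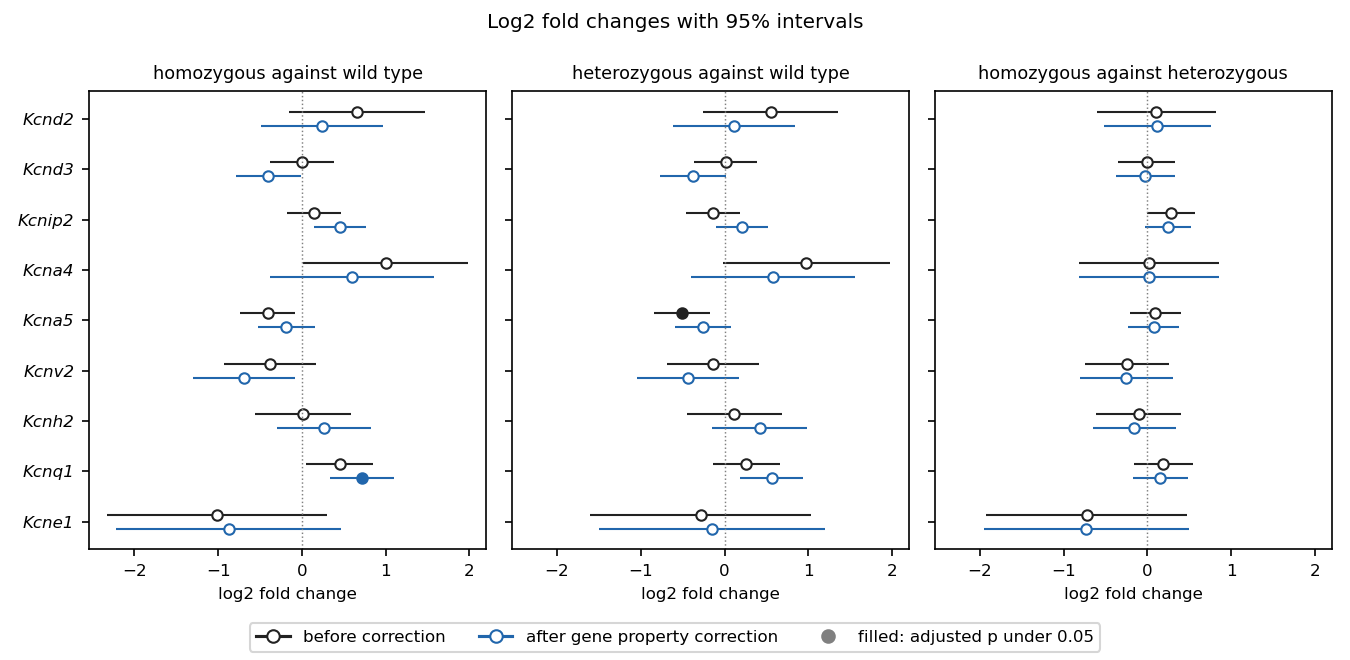
Log2 fold changes of the 9 genes (points, filled where adjusted p is under 0.05) with 95% intervals (bars), for homozygous against wild type, heterozygous against wild type and homozygous against heterozygous hearts, before (black) and after (blue) gene properties were removed. Filled points are Kcna5 in heterozygous hearts before, and Kcnq1 in homozygous hearts after, that step.

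Kcnd2 (ENSMUSG00000060882.5, chromosome 6, 21215503 to 21729805, plus strand) and Kcnd3 (ENSMUSG00000040896.16, chromosome 3, 105452330 to 105674002, plus strand) encode the pore of the fast transient outward current, which shapes the early repolarization of the mouse action potential. Kcnd2 had 28.8, 27.5 and 24.1 CPM in homozygous hearts, 16.8, 30.7 and 27.1 CPM in heterozygous hearts, and 24.4 and 9.70 CPM in wild-type hearts. Wild type 1 lay among the deletion hearts and wild type 2 below all of them. Kcnd2 had a log2 fold change of 0.65 in homozygous (SE 0.36, interval -0.16 to 1.46, adjusted p = 0.207) and 0.55 in heterozygous hearts (SE 0.36, adjusted p = 0.290). The wild-type library chosen decided this value. Without wild type 1 it was 1.47 in homozygous and 1.37 in heterozygous hearts (edgeR, adjusted p = 0.00509 and 0.00737), and without wild type 2 it was 0.17 and 0.06. Removing gene properties gave 0.24 and 0.12 (adjusted p = 0.672 and 0.854).

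Kcnd3 had 24.3, 36.9 and 28.8 CPM in homozygous hearts, 31.9, 30.9 and 27.9 CPM in heterozygous hearts, and 29.1 and 30.8 CPM in wild-type hearts. Its groups overlapped, and homozygous 1 and homozygous 2 were the lowest and the highest of the 8 hearts. The log2 fold change was 0.00 in homozygous (SE 0.17, interval -0.38 to 0.38, adjusted p = 0.990) and 0.01 in heterozygous hearts (SE 0.17, interval -0.37 to 0.39, adjusted p = 0.969). Removing gene properties gave -0.40 and -0.38 (adjusted p = 0.154 and 0.186). Kcnd3os had 0.855, 1.19 and 0.974 CPM in homozygous, 1.23, 0.720 and 0.410 CPM in heterozygous, and 1.66 and 1.42 CPM in wild-type hearts.

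Kcnip2 (ENSMUSG00000025221.15, chromosome 19, 45791839 to 45816061, minus strand) encodes a calcium-binding auxiliary subunit that brings Kcnd channels to the membrane and is required for the fast transient outward current of mouse heart. It had 238, 227 and 242 CPM in homozygous hearts, 159.5, 205 and 217 CPM in heterozygous hearts, and 205 and 221 CPM in wild-type hearts. All 3 homozygous hearts lay above the other 5, and heterozygous 1 lay lowest. Against wild type the log2 fold change was 0.14 in homozygous (SE 0.15, adjusted p = 0.494) and -0.14 in heterozygous hearts (SE 0.15, adjusted p = 0.519). With gene properties removed it was 0.46 in homozygous hearts (SE 0.14, adjusted p = 0.0547) and 0.21 in heterozygous hearts (adjusted p = 0.364), so the heterozygous value turned its direction. Without heterozygous 1 the heterozygous value was 0.01.

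Kcna4 (ENSMUSG00000042604.5, chromosome 2, 107290639 to 107298502, plus strand) encodes the pore of the slow transient outward current, found in mouse mainly in the septum and the inner ventricular wall. It was counted 72, 89 and 41 times in homozygous, 38, 56 and 41 times in heterozygous, and 23 and 22 times in wild-type hearts. This corresponds to 2.20, 1.55 and 1.21 CPM in homozygous hearts, 1.72, 1.75 and 1.40 CPM in heterozygous hearts, and 0.887 and 0.762 CPM in wild-type hearts. All 6 deletion hearts lay above both wild-type hearts. Neither difference passed the test: the log2 fold change was 0.9996 in homozygous (SE 0.45, interval 0.01 to 1.99, adjusted p = 0.121) and 0.98 in heterozygous hearts (SE 0.45, interval -0.02 to 1.97, adjusted p = 0.130). Removing gene properties gave 0.60 and 0.58 (adjusted p = 0.397 and 0.427).

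Kcna5 (ENSMUSG00000045534.4, chromosome 6, 126532551 to 126535412, minus strand, 1 exon) encodes the pore of a rapidly activating delayed rectifier. In human heart this ultra-rapid current belongs to the atria, while mouse ventricle has it too. Kcna5 had 48.6, 66.5 and 53.4 CPM in homozygous hearts, 54.8, 53.4 and 49.4 CPM in heterozygous hearts, and 67.6 and 81.7 CPM in wild-type hearts. All 6 deletion hearts lay below both wild-type hearts, homozygous 2 just below wild type 1, and the heterozygous hearts lay close together. Means were 52.5 ± 2.79 CPM in heterozygous (SD, n = 3) and 74.7 ± 9.94 CPM in wild-type hearts (SD, n = 2). Kcna5 fell by 0.51 on the log2 scale in heterozygous hearts (SE 0.15, interval -0.84 to -0.17, adjusted p = 0.0294 by edgeR's quasi-likelihood test). In homozygous hearts the log2 fold change was -0.41 (SE 0.15, interval -0.74 to -0.08, adjusted p = 0.0658), which did not pass.

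The heterozygous call of Kcna5 depended on single libraries. It was lost without heterozygous 1, 2 or 3 (adjusted p = 0.0559, 0.0757 and 0.0948) and without wild type 2 (-0.33, adjusted p = 0.212), and also with gene properties removed (-0.26, adjusted p = 0.292) or with a block for the replicate number (-0.46, adjusted p = 0.0520). The homozygous difference was -0.19 with gene properties removed (adjusted p = 0.450) and -0.23 without wild type 2 (adjusted p = 0.404), and passed without homozygous 2 (-0.55, adjusted p = 0.0312) and without wild type 1 (-0.53, adjusted p = 0.0246). Kcna5 is also known from vascular smooth muscle and atria. The 6 smooth muscle markers summed to 397 to 520 CPM in homozygous, 337 to 469 CPM in heterozygous and 801 to 829 CPM in wild-type hearts, with 3 of 6 lower past the threshold in homozygous and 5 of 6 in heterozygous hearts and none at 0. Of the 8 atrial markers tested, 4 fell and 2 rose in each deletion genotype. Beside both lists, 12.4% of all genes fell and 15.3% rose in homozygous hearts, and 12.8% fell and 15.2% rose in heterozygous hearts. The 9 listed atrial markers summed to 873 to 1170 CPM in homozygous, 823 to 1207 CPM in heterozygous and 829.9 to 979 CPM in wild-type hearts. Pam, with means of 757, 761 and 416 CPM in homozygous, heterozygous and wild-type hearts, and Nppa, with 215, 273 and 398 CPM, made up most of these sums. The sums therefore do not show the changes of the markers with low levels. Myl7, a defining atrial marker, had 0.366, 0.279 and 0.177 CPM in homozygous, 0.272, 0.532 and 0.684 CPM in heterozygous, and 6.59 and 14.2 CPM in wild-type hearts. Sln was at 0 in heterozygous hearts, beside 2.93 and 5.27 CPM in wild-type hearts. Bmp10, which was not tested, was at 0 in both deletion genotypes and in wild type 1, and at 0.139 CPM in wild type 2. The part of either cell type in the Kcna5 values was not tested.

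Kcnv2 (ENSMUSG00000047298.3, chromosome 19, 27322588 to 27337179, plus strand) encodes a silent pore subunit, which forms no channel alone and joins pore subunits of another subfamily. It had 27.9, 30.8 and 33.7 CPM in homozygous hearts, 29.6, 30.4 and 49.2 CPM in heterozygous hearts, and 30.9 and 49.2 CPM in wild-type hearts. Heterozygous 3 and wild type 2 were high and the other 6 hearts lay close together, so the groups overlapped. Its log2 fold change was -0.38 in homozygous (SE 0.25, interval -0.93 to 0.17, adjusted p = 0.282) and -0.14 in heterozygous hearts (SE 0.25, adjusted p = 0.714). Without wild type 2 the values were 0.03 and 0.27, the opposite direction. In the fit with gene properties removed and the replicate number as a block, Kcnv2 passed as lower in homozygous hearts (-0.81, adjusted p = 0.0418), and without the block it did not (-0.69, adjusted p = 0.123).

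Kcnh2 (ENSMUSG00000038319.14, chromosome 5, 24319589 to 24351604, minus strand) encodes the pore of the rapid delayed rectifier, the target of many drugs that prolong the QT interval in humans. It had 130.5, 137 and 119 CPM in homozygous hearts, 143, 130.5 and 142 CPM in heterozygous hearts, and 175 and 80.3 CPM in wild-type hearts. All 6 deletion hearts lay between the 2 wild-type hearts. The log2 fold change was 0.01 in homozygous (SE 0.25, interval -0.56 to 0.58, adjusted p = 0.978) and 0.12 in heterozygous hearts (SE 0.26, interval -0.45 to 0.69, adjusted p = 0.771). Leaving out 1 wild-type heart turned it either way. Without wild type 1 the log2 fold change was 0.69 in homozygous and 0.79 in heterozygous hearts (edgeR, adjusted p = 0.00237 and 0.00108), and without wild type 2 it was -0.41 and -0.31. Removing gene properties gave 0.27 and 0.42 (adjusted p = 0.517 and 0.306).

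Kcnq1 (ENSMUSG00000009545.14, chromosome 7, 143106362 to 143427042, plus strand) encodes the pore of the slow delayed rectifier and lies in an imprinted region with the antisense RNA Kcnq1ot1. It had 45.5, 37.6 and 39.4 CPM in homozygous hearts, 27.3, 40.4 and 39.4 CPM in heterozygous hearts, and 32.3 and 27.4 CPM in wild-type hearts. All 3 homozygous hearts lay above both wild-type hearts, while heterozygous 1 lay at the level of wild type 2. Kcnq1 had a log2 fold change of 0.45 in homozygous (SE 0.18, interval 0.05 to 0.85, adjusted p = 0.0886) and 0.26 in heterozygous hearts (SE 0.18, adjusted p = 0.314). With gene properties removed Kcnq1 passed in homozygous hearts, at 0.72 (SE 0.17, adjusted p = 0.0213), and was 0.56 in heterozygous hearts (SE 0.17, adjusted p = 0.0540). In that fit 1 of the 9 genes was called in homozygous and 0 in heterozygous hearts, against backgrounds of 13.9% and 13.3%. The Kcnq1 call of that fit was lost when the replicate block was added (0.69, adjusted p = 0.0548) or wild type 2 left out (0.62, adjusted p = 0.118). As counted, Kcnq1 passed in homozygous hearts without heterozygous 1 (0.48, adjusted p = 0.0285). Kcnq1ot1 had 12.7, 16.9 and 13.6 CPM in homozygous, 13.9, 14.4 and 20.4 CPM in heterozygous, and 9.48 and 13.4 CPM in wild-type hearts.

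Kcne1 (ENSMUSG00000039639.7, chromosome 16, 92345982 to 92359468, minus strand) encodes the single-pass auxiliary subunit that slows the opening of Kcnq1 channels. It had 6.50, 2.30 and 7.998 CPM in homozygous hearts, 4.85, 8.11 and 14.5 CPM in heterozygous hearts, and 15.1 and 7.35 CPM in wild-type hearts. Of the 9 genes it had the widest range across libraries, 2.68 on the log2 scale, and the groups overlapped. The log2 fold change was -1.01 in homozygous (SE 0.58, interval -2.32 to 0.30, adjusted p = 0.227) and -0.28 in heterozygous hearts (SE 0.58, interval -1.60 to 1.03, adjusted p = 0.752). The intervals of Kcne1 were the widest of the 9 genes in both comparisons. Without wild type 1, the highest heart, the values were -0.40 in homozygous and 0.33 in heterozygous hearts, and neither passed.

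**Figure D3:**
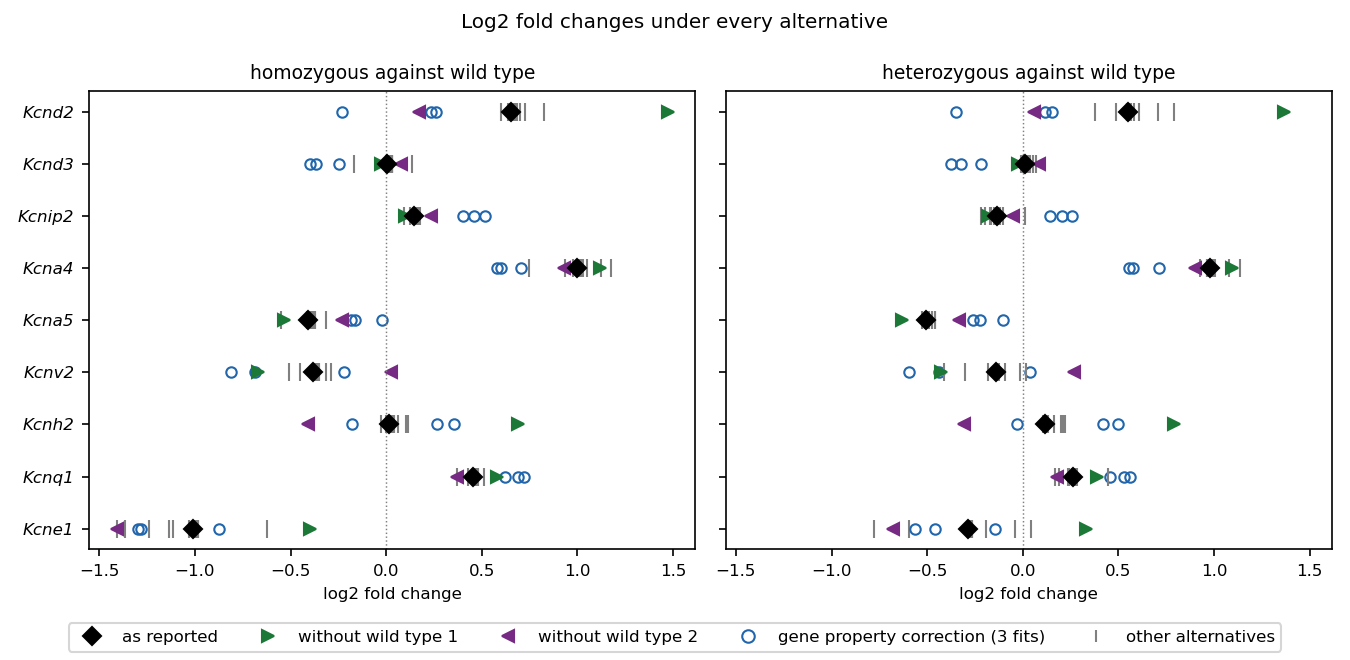
Log2 fold changes against wild type of the 9 genes in homozygous and heterozygous hearts, as reported and under the alternatives named in the legend; the dotted line marks 0. Kcnd2, Kcnh2 and Kcne1 move most when wild type 1 is left out, and Kcnh2 and Kcnv2 change direction without wild type 2 in both deletion genotypes.

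Ratios between subunits were compared within each heart, since they do not depend on the scaling of a library. Of the 4 ratios, Kcna4 to Kcna5 separated all deletion hearts from all wild-type hearts. This separation is not a further result. It follows from the levels given above, with Kcna4 higher and Kcna5 lower in every deletion heart than in both wild-type hearts. On the log2 scale it was -4.41, -5.33 and -5.35 in homozygous hearts, -4.91, -4.85 and -5.04 in heterozygous hearts, and -6.10 and -6.57 in wild-type hearts. The difference from wild type was 1.30 in homozygous and 1.40 in heterozygous hearts. The exact two-sided permutation test gave p = 0.1 for each, the smallest that 3 against 2 hearts allow, and 0.4 after adjustment over the 8 tests. With gene properties removed the difference was smaller, 0.72 in homozygous and 0.79 in heterozygous hearts, the lowest of the 8 alternatives run for this ratio.

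The ratio of Kcne1 to Kcnq1 was lower in all 3 homozygous hearts, at -2.79, -3.97 and -2.29, than in the wild-type hearts, at -1.09 and -1.89 (difference -1.53, exact permutation p = 0.2, adjusted 0.4). In heterozygous hearts it was -2.47, -2.30 and -1.43, overlapping the wild type (difference -0.58, exact permutation p = 0.3, adjusted 0.4). The ratio of Kcnd2 to Kcnd3 was 0.24, -0.42 and -0.26 in homozygous, -0.92, -0.01 and -0.04 in heterozygous, and -0.25 and -1.66 in wild-type hearts. Wild type 2 alone was lower than the deletion hearts (exact permutation p = 0.3 in homozygous and 0.5 in heterozygous hearts, adjusted 0.4 and 0.571). The ratio of Kcnip2 to the sum of both Kcnd genes was 2.16, 1.81 and 2.19 in homozygous, 1.71, 1.74 and 1.98 in heterozygous, and 1.94 and 2.44 in wild-type hearts, with overlap in both comparisons (exact permutation p = 0.6 and 0.3, adjusted 0.6 and 0.4).

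**Figure D4:**
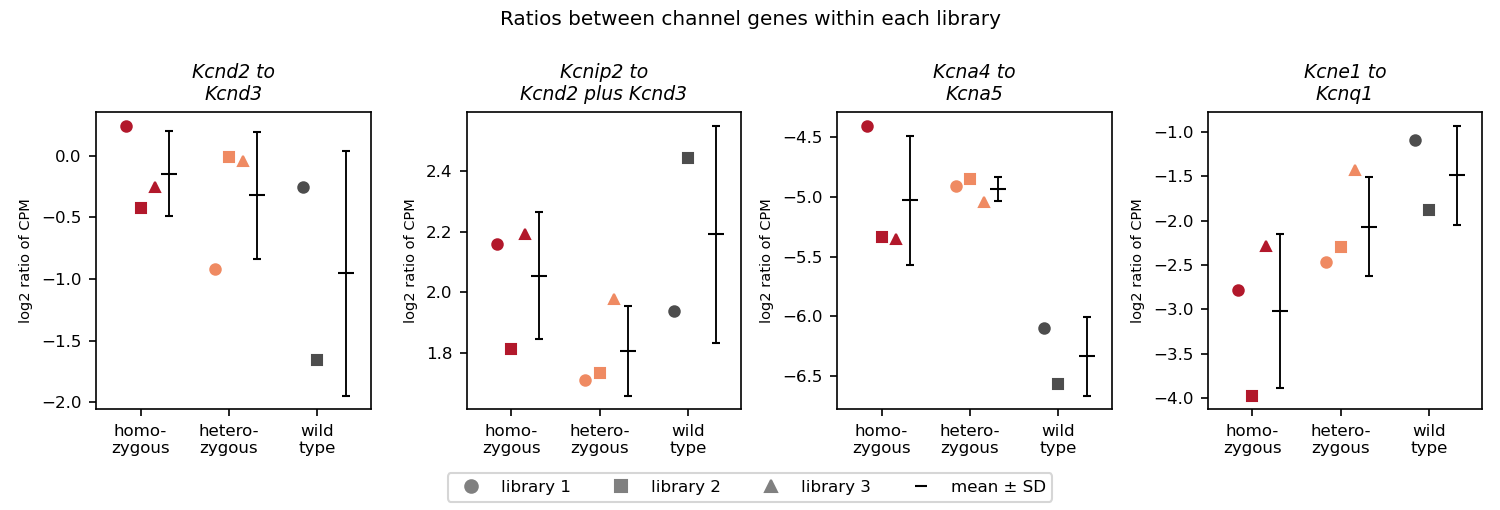
Log2 ratios of CPM between channel subunits (y axis) in homozygous, heterozygous and wild-type hearts; points are libraries and bars are mean ± SD. The Kcna4 to Kcna5 ratio lies between -5.35 and -4.41 in the 6 deletion hearts, above -6.10 and -6.57 in the wild-type hearts.

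Between homozygous and heterozygous hearts 0 of the 9 genes passed edgeR's quasi-likelihood test, and 0 had an unadjusted p under 0.05. The background was 0%: none of the 15075 genes passed, and 411 had an unadjusted p under 0.05. DESeq2 called 2 genes and limma-voom 0, with none of the 9 among either. Kcnip2 alone did not overlap (11.3% of all genes did not, 6.19% higher and 5.15% lower), with a log2 fold change of 0.28 (SE 0.13, interval -0.01 to 0.57, unadjusted p = 0.0546, adjusted p = 0.9996). The other 8 had log2 fold changes of -0.73 for Kcne1 to 0.19 for Kcnq1. The interval was -0.35 to 0.33 for Kcnd3 and -0.20 to 0.40 for Kcna5, but -1.93 to 0.47 for Kcne1.

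Other voltage-gated channel genes were read from lists of 32 pore subunits, 13 auxiliary subunits, and 24 regulators and partners. Of the 16 pore subunits tested, 1 rose in homozygous hearts and none fell, and Kcna1 fell in heterozygous hearts and none rose. By DESeq2 the counts were 1 higher and 1 lower in homozygous and 1 and 2 in heterozygous hearts, and limma-voom gave the same counts as edgeR. At an unadjusted p under 0.05 by edgeR, 1 gene was higher and 1 lower in homozygous hearts, and 2 were higher and 2 lower in heterozygous hearts. Over all 15075 genes, 6054 in homozygous and 6059 in heterozygous hearts had an unadjusted p under 0.05, and 27.7% and 28.0% were called by edgeR. Without wild type 2 no gene of this list passed in either direction or genotype. The homozygous count was also 0 without any 1 homozygous heart and without heterozygous 2 or 3. Without wild type 1, 1 rose and 1 fell in homozygous hearts, and 1 rose and 4 fell in heterozygous hearts, out of 19 tested. The list's median log2 fold change was -0.29 in homozygous and -0.33 in heterozygous hearts, beside -0.03 in each over all genes.

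Kcna1, a neuronal relative of Kcna5, had 10.1, 11.4 and 11.0 CPM in homozygous, 9.07, 11.0 and 9.13 CPM in heterozygous, and 12.5 and 21.8 CPM in wild-type hearts. Its log2 fold change was -0.66 in homozygous (SE 0.23, adjusted p = 0.0558) and -0.81 in heterozygous hearts (SE 0.23, adjusted p = 0.0248). Without wild type 2 the values were -0.16 and -0.32 and neither passed, and the heterozygous call was also lost without heterozygous 1 or 3. The 10 markers of neurons and Schwann cells summed to 23.7 to 27.1 CPM in homozygous, 20.9 to 34.5 CPM in heterozygous and 36.6 to 57.8 CPM in wild-type hearts. In each deletion genotype 2 of the 6 tested fell, beside 12.4% of all genes in homozygous and 12.8% in heterozygous hearts. Th, which was not among the 6, was at 0 in both deletion genotypes and in wild type 1, and at 0.416 CPM in wild type 2. The part of these cells in the Kcna1 values was not tested. Next by p in this list were Kcna7 with 0.24 (adjusted p = 0.291) and Kcnh1 with 1.21 (adjusted p = 0.251) in homozygous hearts.

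Once gene properties were removed, the pore list had 1 gene higher and 0 lower in homozygous and 1 higher and 1 lower in heterozygous hearts, out of 16. The higher one in both was Kcng2, a silent subunit named after its values were seen. It had 213, 190.2 and 188 CPM in homozygous, 188, 182 and 208 CPM in heterozygous, and 182 and 177 CPM in wild-type hearts. Its log2 fold change was 0.13 and 0.10 in homozygous and heterozygous hearts as counted, and 0.47 and 0.49 with gene properties removed (adjusted p = 0.0213 and 0.0200). The lower one was Kcna1, at -0.92 in heterozygous hearts (adjusted p = 0.0346). Neither passed in this fit without wild type 2, which called 0 genes of the list.

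Of the 10 auxiliary subunits tested, Amigo1 rose and Kcnab1 fell in homozygous hearts, and Kcnab1 fell in heterozygous hearts. Over all genes tested, 27.7% were called in homozygous and 28.0% in heterozygous hearts. The list's median log2 fold change was -0.56 in homozygous and -0.40 in heterozygous hearts, beside -0.03 in each over all genes. Kcnab1 encodes a cytoplasmic beta subunit that binds Kcna channels and speeds their inactivation. It had 1.22, 1.17 and 1.42 CPM in homozygous hearts, 1.68, 1.19 and 0.889 CPM in heterozygous hearts, and 2.39 and 7.21 CPM in wild-type hearts. Kcnab1 fell by 1.92 on the log2 scale in homozygous (SE 0.47, adjusted p = 0.0133) and by 1.95 in heterozygous hearts (SE 0.48, adjusted p = 0.0128). It also passed with gene properties removed (-2.18 and -2.24, adjusted p = 0.0153 and 0.0160). Without wild type 2, the highest heart, neither passed (-0.88 and -0.91, adjusted p = 0.294 and 0.275). The heterozygous call was also lost without heterozygous 3 (-1.75, adjusted p = 0.0509), and the homozygous one with the replicate block (-1.77, adjusted p = 0.0553).

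Amigo1 encodes a membrane protein that accompanies potassium channels in neurons. It had 35.8, 39.9 and 33.7 CPM in homozygous hearts, 31.9, 30.0 and 36.4 CPM in heterozygous hearts, and 25.9 and 27.4 CPM in wild-type hearts. The log2 fold change was 0.45 in homozygous (SE 0.14, adjusted p = 0.0332) and 0.30 in heterozygous hearts (SE 0.14, adjusted p = 0.135). All 6 deletion hearts lay above both wild-type hearts, a separation seen for 22.1% of all genes. The homozygous call was lost without any 1 homozygous or wild-type heart (0.38 to 0.53), with gene properties removed (0.30, adjusted p = 0.176) and with the replicate block (0.44, adjusted p = 0.0757). Kcnab2 (-0.69, adjusted p = 0.151) and Kcnip1 (-1.72, adjusted p = 0.317) did not pass in homozygous hearts.

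Of the 24 regulators and partners, all tested, 5 rose and 5 fell in each deletion genotype, beside backgrounds of 15.3% higher and 12.4% lower in homozygous and 15.2% and 12.8% in heterozygous hearts. The number that fell was 0 in homozygous and 2 in heterozygous hearts without wild type 2, while 5 rose in each. In homozygous hearts it was also 2 without homozygous 1 or 3 and 3 without homozygous 2 or heterozygous 3. In heterozygous hearts it was 3 without heterozygous 2 and 2 without heterozygous 3. Their median log2 fold change was 0.07 in homozygous and 0.24 in heterozygous hearts. Among the genes that rose, Akap9 encodes the anchor that holds protein kinase A at the Kcnq1 channel. It had 116, 125 and 118 CPM in homozygous hearts, 109, 125 and 111 CPM in heterozygous hearts, and 69.7 and 57.6 CPM in wild-type hearts. Akap9 rose by 0.91 in homozygous (SE 0.13, adjusted p = 0.00104) and by 0.85 in heterozygous hearts (SE 0.13, adjusted p = 0.00134). Removing gene properties gave 0.20 and 0.14 (adjusted p = 0.199 and 0.399).

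Akap6, the kinase anchor of the nuclear envelope, had 269.6, 298 and 302 CPM in homozygous, 150.3, 296 and 247 CPM in heterozygous, and 117 and 97.1 CPM in wild-type hearts. Akap6 rose by 1.44 (SE 0.25, adjusted p = 0.00286) and by 1.11 (SE 0.24, adjusted p = 0.00807), and had 0.63 and 0.24 with gene properties removed (adjusted p = 0.0580 and 0.447). The heterozygous call was lost without wild type 2 (1.02, adjusted p = 0.0907). Camk2d, the main calcium/calmodulin-dependent kinase of heart, had 242, 233 and 244 CPM in homozygous, 209, 223 and 219 CPM in heterozygous, and 163 and 107 CPM in wild-type hearts. It rose by 0.83 (SE 0.17, adjusted p = 0.00566) and by 0.69 (SE 0.17, adjusted p = 0.0121), and had 0.35 and 0.19 with gene properties removed (adjusted p = 0.112 and 0.391).

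Dlg1, a scaffold that clusters Kcna channels, had 127, 128 and 121 CPM in homozygous, 122, 127 and 130.2 CPM in heterozygous, and 81.0 and 90.2 CPM in wild-type hearts. It rose by 0.55 (SE 0.11, adjusted p = 0.00585) and by 0.56 (SE 0.11, adjusted p = 0.00481), and had -0.00343 and 0.000425 with gene properties removed (adjusted p = 0.989 and 0.999). Each of these 4 genes was higher in all 6 deletion hearts than in both wild-type hearts, as were 22.1% of all genes. They were named by their small p in homozygous against wild-type hearts, so this separation is not a further result. In all 4 the rise in both genotypes was no longer past the threshold with gene properties removed.

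Rnf207, named here after its values were seen, encodes a RING finger protein that raises the level of the KCNH2 channel in human cell lines and rabbit cardiomyocytes. It had 83.6, 108 and 109 CPM in homozygous hearts, 62.1, 95.05 and 99.8 CPM in heterozygous hearts, and 176 and 241 CPM in wild-type hearts. It fell by 1.05 in homozygous (SE 0.22, adjusted p = 0.00631) and by 1.28 in heterozygous hearts (SE 0.22, adjusted p = 0.00240). Removing gene properties gave -0.66 in homozygous (adjusted p = 0.0713) and still passed at -0.88 in heterozygous hearts (adjusted p = 0.0275). Without wild type 2 the homozygous value was -0.77 (adjusted p = 0.0833), and with gene properties also removed the heterozygous value was -0.67 (adjusted p = 0.228).

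Once gene properties were removed, 5 of the 24 were higher and 3 lower in homozygous, and 3 higher and 4 lower in heterozygous hearts, beside backgrounds of 8.34% higher and 5.60% lower and of 7.76% higher and 5.51% lower. With wild type 2 also left out, 1 was higher and 0 lower in homozygous and 2 higher and 0 lower in heterozygous hearts. Irx3, a transcription factor of the ventricular conduction system, was among those higher in homozygous hearts (1.21, adjusted p = 0.0310). It had 38.2, 38.6 and 35.9 CPM in homozygous, 43.4, 26.4 and 20.3 CPM in heterozygous, and 25.9 and 17.7 CPM in wild-type hearts. Nedd4l, a ubiquitin ligase that removes Kcnq1 channels from the membrane, was among those lower in both (-0.62 and -0.77, adjusted p = 0.0221 and 0.00978), a call lost without wild type 2. Both were named after their values were seen, and neither passed as counted (Irx3 0.79, adjusted p = 0.0679, and Nedd4l -0.06, adjusted p = 0.792, in homozygous hearts).

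**Figure D5:**
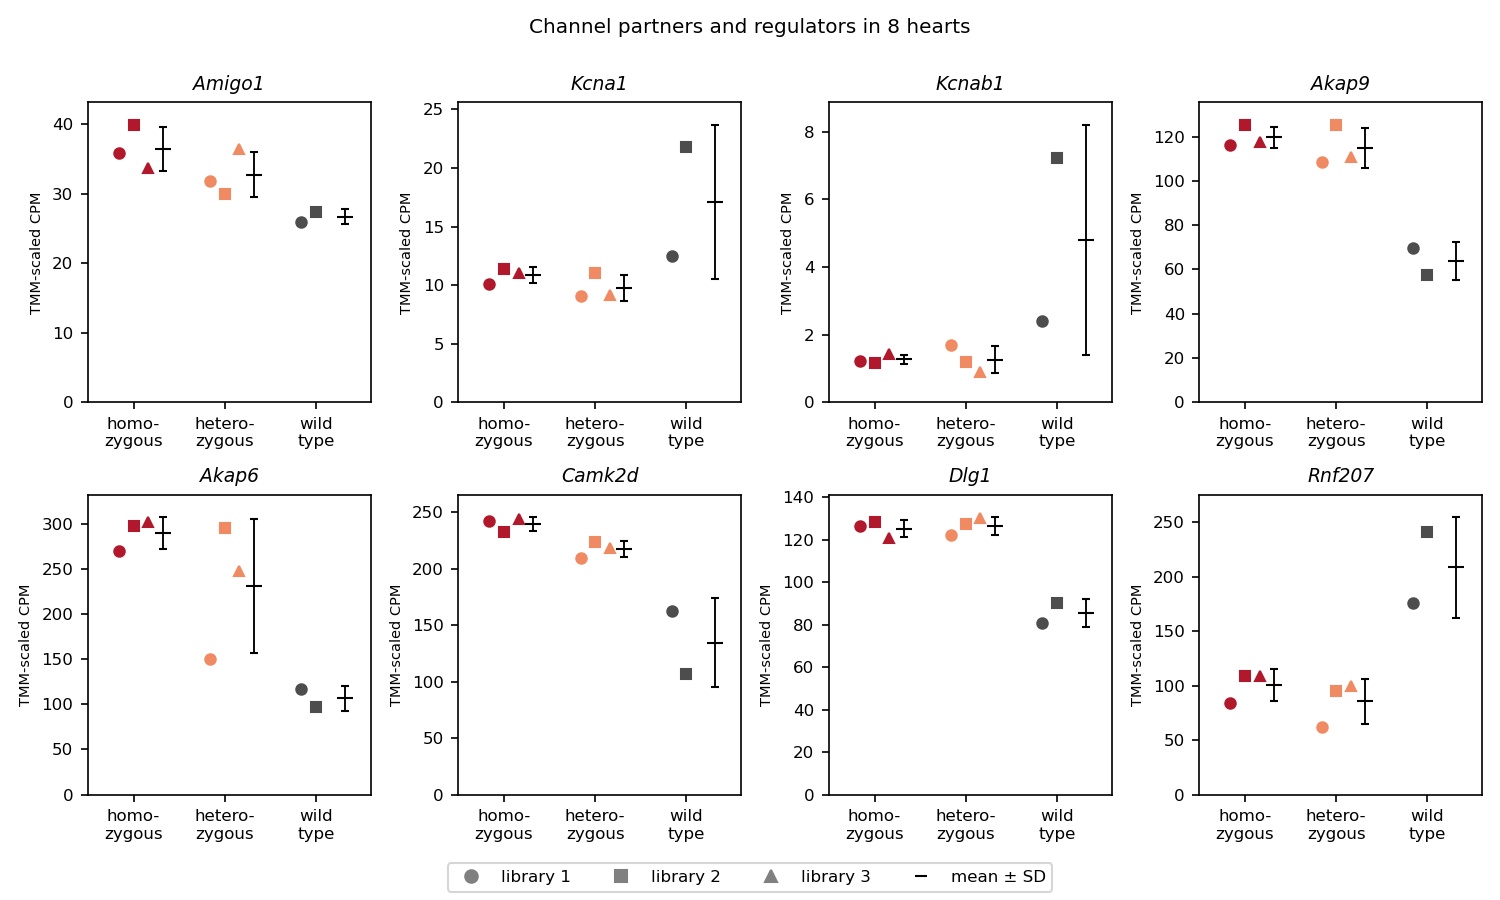
TMM-scaled CPM (y axis, from 0) of 8 genes that form, accompany or regulate these channels, in homozygous, heterozygous and wild-type hearts; points are libraries and bars are mean ± SD. Akap9, Camk2d and Dlg1 lie higher and Rnf207 lower in all 6 deletion hearts than in both wild-type hearts. Of all genes, 22.1% lay higher and 20.7% lower in this way. The wild-type points of Kcna1 and Kcnab1 lie far apart.

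Genes with the pattern most like that of a member were found by the root mean square difference of centred log2 CPM over the 8 libraries, among 13110 genes. For Kcnd2 (range 1.65 on the log2 scale) they were Zbtb3, Gapdhs and Slc22a3, with differences of 0.0813, 0.113 and 0.154. For Kcna4 (range 1.46) they were Rgs6, Tgs1 and Lrrk2, at 0.1498, 0.1503 and 0.152. For Kcne1 (range 2.68) the nearest were Klf8, Parvg and Spag1, at 0.535, 0.540 and 0.543, so no gene came as close to Kcne1 as the nearest genes came to the other 2. These are descriptions of 8 libraries, of which wild type 2 sets much of the range for Kcnd2.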

How the data were processed

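Heart RNA was measured in 8 libraries. The authors deposited unnormalized counts for each gene symbol. The tools named in the submitters' processing notes are Trimmomatic 0.36, HISAT2, Subread with featureCounts, and DESeq2, and the build is mm10. The sources used here do not give the annotation, the strand setting or the treatment of multi-mapping reads.

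The counts were analysed in R 4.3.3. filterByExpr of edgeR 4.0.16 kept 15075 of 24516 genes (61.5%). All 8 libraries entered 1 robust quasi-likelihood fit after TMM scaling, with two-sided tests, p-values adjusted by Benjamini-Hochberg across every gene that entered, and calls at 0.05. Subunit ratios (CPM plus 0.1) were tested by exact permutation. DESeq2 1.42.0 and limma 3.58.1 (voom) served as alternatives, as did scaling by DESeq2 size factors or total counts, no filter, a non-robust fit, a sex term, only the compared groups, the replicate block and each library left out. GC content and the lengths of the transcript and its 3′ UTR (GENCODE vM21, 98.4% of symbols found) were fitted per library by splines (4 df each) and removed as an offset for 14168 genes. The fits were tested on simulated data.

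The members and gene lists were chosen with earlier results of these data known. Besides the members, up to 4 genes per list were named by smallest p for homozygous against wild type; 1 of these genes and 1 sequence are not reported here, though the counts include the gene. Alternatives for the named list genes were added after the data were seen. The deviations of same-numbered homozygous and heterozygous libraries correlated at 0.177, 0.138 and -0.0228. Those of same-numbered deletion and wild-type libraries correlated at -0.00575 to 0.0244. The libraries were therefore not treated as pairs, though these values cannot exclude pairing. By Xist, library 1 was male and library 2 female in every genotype, so the replicate block partly follows sex. Library depth sets the counting error; p-values measure only the spread between these samples, which may be technical.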

Additional observations from a re-analysis of the deposited data

How the results depend on the processing

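Of the 9 genes, the count past the threshold in homozygous against wild-type hearts was 0. It was 1 with gene properties removed (Kcnq1, higher), 1 with the replicate block in that fit (Kcnv2, lower), 0 in that fit without wild type 2, and 0 to 3 when each library was left out. In heterozygous against wild-type hearts it was 1. It was 0 with the replicate block, with gene properties removed, with both, and with gene properties removed without wild type 2, and 0 to 3 when each library was left out. The count of 3 came without wild type 1 in both comparisons, with Kcnd2, Kcna5 and Kcnh2 past the threshold. Homozygous against heterozygous it stayed 0 under every alternative run. The replicate block thus ended the Kcna5 call in heterozygous hearts (-0.46, adjusted p = 0.0520 by edgeR). The replicate numbers partly follow sex, and the samples were not treated as pairs. Directions turned in the following log2 fold changes, and where no library was left out the cause was not tested. With gene properties removed Kcnd3 was -0.40 in homozygous and -0.38 in heterozygous hearts (-0.37 and -0.32 with the block), Kcnip2 was 0.21 in heterozygous hearts (0.14 with the block), and Dlg1 was -0.00343 in homozygous hearts (-0.00309 with the block). The Kcnip2 to Kcnd2 plus Kcnd3 ratio then differed by 0.59 in homozygous and 0.37 in heterozygous hearts. With gene properties removed and wild type 2 left out, Kcnd2 was -0.23 and -0.35, Kcnd3 -0.25 and -0.22, and Kcnh2 -0.18 and -0.0288 in homozygous and heterozygous hearts, and Kcnip2 was 0.26, Kcnv2 0.0371 and Camk2d -0.00855 in heterozygous hearts. Values near 0 also turned for Kcnd3 (limma-voom -0.00152 in homozygous, sex term -0.0108 in heterozygous hearts) and Kcnh2 (total counts -0.000114 in homozygous hearts). Homozygous against heterozygous, Kcnd3 was 0.00515 with no filter and 0.0310 with a sex term, and Kcna4 was -0.0257 with limma-voom, -0.0128 with the block, -0.0286 with a sex term, and -0.00938 with the block and gene properties removed. When each library was left out, the homozygous values ranged from -0.17 to 0.13 for Kcnd3, from -0.67 to 0.0269 for Kcnv2 and from -0.41 to 0.69 for Kcnh2. The heterozygous values ranged from -0.0233 to 0.0832 for Kcnd3, from -0.22 to 0.0128 for Kcnip2, from -0.43 to 0.27 for Kcnv2, from -0.31 to 0.79 for Kcnh2 and from -0.78 to 0.33 for Kcne1. Homozygous against heterozygous, they ranged from -0.11 to 0.28 for Kcnd2, from -0.19 to 0.12 for Kcnd3, from -0.23 to 0.20 for Kcna4, from -0.0460 to 0.19 for Kcna5 and from -0.37 to 0.0356 for Kcnv2. The Kcnd2 to Kcnd3 ratio ranged from -0.0693 to 1.33 in heterozygous hearts, and the Kcnip2 to Kcnd2 plus Kcnd3 ratio from -0.39 to 0.12 in homozygous hearts. With 2 wild-type hearts, leaving out 1 leaves a lone library that is assumed to vary like the other groups. Depth limits Kcna4 most, with 22 counts in wild type 2.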
